A study of Mus musculus with 10 samples.

Results

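The E2F and retinoblastoma family without *E2f1* was followed in RNA of the lumbar spinal cord of mouse embryos at E12.5. Its 10 genes, *E2f2*, *E2f3*, *E2f4*, *E2f5*, *E2f6*, *E2f7*, *E2f8*, *Rb1*, *Rbl1* and *Tfdp1*, were chosen by name and found by their Ensembl identifiers among 54146 rows of the count table, and all 10 passed the expression filter that left 19773 genes for the tests. *E2f1* was left out because the labels place the Wnt1-cre transgene at that gene (strain B6.Cg-E2f1Tg(Wnt1-cre)2Sor/J). The study compared 5 control embryos with 5 littermates labelled *Dot1l*-cKO, which lack the histone H3K79 methyltransferase DOT1L where Cre is active. Both genotypes came from litter 1, with 3 embryos each, and from litter 2, with 2 embryos each, and single embryos are named here by litter and by the last number of their label (litter 1 control 4). *Dot1l*-cKO embryos carried Wnt1cre2/+ and *Dot1l* fl/fl in both litters. No control carried the transgene, and the controls were *Dot1l* fl/fl in litter 1 and *Dot1l* fl/+ in litter 2, so that the transgene and its insertion at *E2f1* stood in the *Dot1l*-cKO group alone. Wnt1-cre drives recombination mainly in the dorsal neural tube, so the tissue still held cells with DOT1L, and it included the attached dorsal root ganglia. The question was whether the other activators and the repressors of the family moved as the S phase genes did.

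E2F proteins bind DNA at promoters of genes for DNA replication and the cell cycle, mostly as dimers with a DP protein such as TFDP1. In dividing progenitors, E2F2 and E2F3 activate these genes, and the pocket proteins RB1 and RBL1 (p107) bind E2Fs and hold the genes down until cyclin-dependent kinases phosphorylate them. E2F4 and E2F5 act mostly as repressors with pocket proteins, E2F6 represses without them through Polycomb proteins, and the atypical E2F7 and E2F8 bind DNA without a DP partner and repress from S phase on. Several of the family, such as *E2f2*, *E2f7*, *E2f8* and *Rbl1*, are themselves known E2F targets that are transcribed in cycling cells, whereas *Rb1* and *E2f4* are transcribed in most cells. In the embryonic spinal cord, cycling progenitors line the ventricle and neurons leave the cycle as they migrate into the mantle.

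Because E2F proteins bind short GC-rich letters, the promoters of the family were searched for 4 E2F-type motifs, TTTGGCGC, TTTCCCGC, TTTCGCGC and TTTGCCGC, on both strands, in a window from 250 bases before to 50 bases after each RefSeq gene start (GRCm38.p6). The 4 motifs cannot match the same bases of a strand, and each promoter with a match in the family held 1. Of the 10 genes, 7 had a promoter in that table (*E2f4*, *E2f5* and *Rb1* had none), and 5 of these 7 held a match, against 704 of 27025 genes overall (2.6%) and 12 of 30 S phase genes (40%). The stretches of these 5 genes are shown, with the match in capitals, because they hold the letters that the family shares with part of the S phase genes. A match is a string of letters and not a site at which binding was measured.
*E2f7* (chr10:110745215-110745274, plus strand, TTTCCCGC read on the opposite strand): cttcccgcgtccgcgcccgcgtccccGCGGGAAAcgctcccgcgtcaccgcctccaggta
*E2f3* (chr13:29986064-29986123, minus strand, TTTCCCGC read on the opposite strand): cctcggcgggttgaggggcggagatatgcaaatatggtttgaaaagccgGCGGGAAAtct
*Rbl1* (chr2:157204535-157204594, minus strand, TTTCGCGC): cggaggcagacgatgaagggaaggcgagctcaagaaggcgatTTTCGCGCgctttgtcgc
*Tfdp1* (chr8:13338682-13338741, plus strand, TTTCGCGC read on the opposite strand): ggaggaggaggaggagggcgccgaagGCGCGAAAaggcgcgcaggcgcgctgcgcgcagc
*E2f2* (chr4:136172294-136172323, plus strand, TTTGGCGC): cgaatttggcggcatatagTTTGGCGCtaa
The *E2f3* and *Rbl1* stretches end at the last base before the RefSeq start, and their matches begin 11 and 18 bases before it. In *E2f7* the match begins 198 bases before the start and in *Tfdp1* 43 bases before it, whereas in *E2f2* it begins at base 40 of the transcript as RefSeq gives it. *E2f6* and *E2f8* held none of the 4 motifs in this window, nor did the other RefSeq start of *E2f2* or that of *E2f3*. Only the letters in these windows were examined.

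Total counts per embryo lay between 40949585 and 61194291 in controls and between 54870771 and 68928443 in *Dot1l*-cKO embryos. The 10 genes had between 453 and 6781 reads per embryo. Expression is stated in CPM, read counts divided by the TMM-adjusted library size and put on a common scale for all genes. Sums over markers and the *Xist* and Y-linked values are CPM of the total counts, without the TMM factor. Reads over the whole *Dot1l* gene (87.6 to 107 CPM in controls and 97.8 to 112 CPM in *Dot1l*-cKO embryos) do not check the genotype, since the deleted part was not analysed here. Markers of neurons summed to 10980 CPM or more and markers of neural progenitors to 3023 CPM or more in every embryo, and sensory neuron markers of the ganglia were present at 185.8 to 572.2 CPM in sum. Both *Dot1l*-cKO embryos of litter 2 had *Xist* at 6.00 and 6.63 CPM and Y-linked genes at 172 and 153 CPM in sum, whereas the other 8 embryos had *Xist* at 504 CPM or more and Y-linked genes at 1.12 CPM or less, so in litter 2 this sex-linked pattern and the genotype cannot be told apart.

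Per kilobase of exon, *Tfdp1*, the dimerization partner, had the highest level of the family, with a median of 26.9 RPKM over the 10 embryos. The repressor *E2f4* followed at 19.2 RPKM, the pocket protein gene *Rb1* at 16.4 RPKM, *E2f5* at 12.3 RPKM and *E2f6* at 8.62 RPKM. The activator *E2f3* (7.18 RPKM) and the pocket protein gene *Rbl1* (4.76 RPKM) came next, and the lowest levels were those of *E2f8* (2.90 RPKM), the activator *E2f2* (2.41 RPKM) and *E2f7* (1.90 RPKM). Between neighbours in this order the higher gene was above the lower gene in 10 of 10 embryos, although the ranges over all embryos overlapped for each pair. The exception was *E2f8* and *E2f2*, where *E2f8* was above *E2f2* in 4 of 10 embryos, all of litter 1, and *E2f2* was above *E2f8* in all 4 embryos of litter 2. The genes for broadly acting partners and repressors therefore stood at the top of the order, and the activator *E2f2* and both atypical repressors at the bottom.

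**Figure D1:**
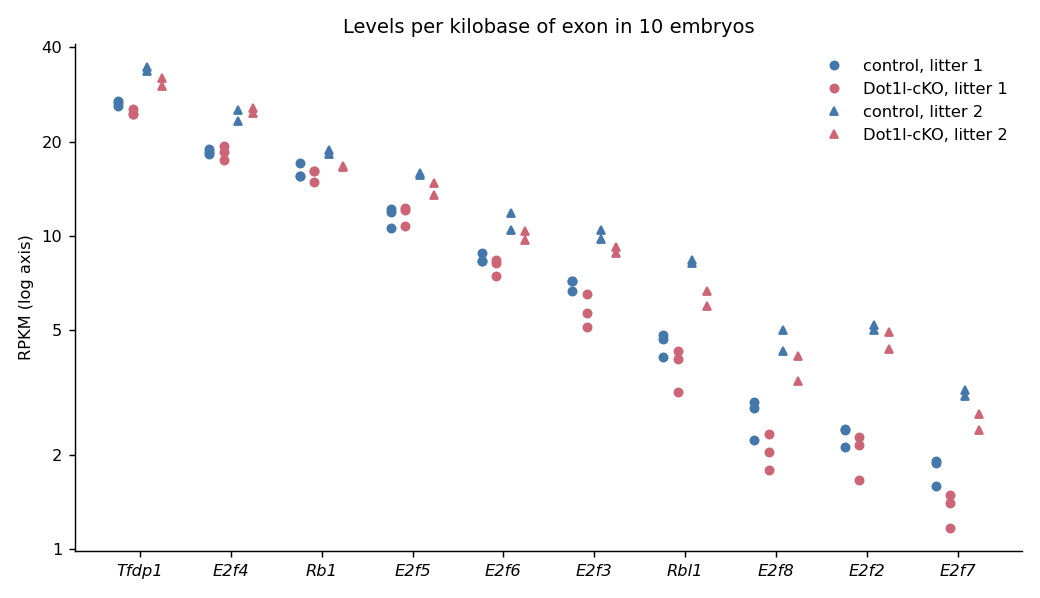
Levels of the 10 genes as RPKM (CPM after TMM normalization per kilobase of exon, logarithmic axis), 1 point per embryo, with circles for litter 1, triangles for litter 2, blue for control and red for *Dot1l*-cKO. Genes are ordered by their median from *Tfdp1* (26.9 RPKM) to *E2f7* (1.90 RPKM), and litter 2 lies above litter 1 in every gene but *Rb1*, where the litters overlap.

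Between *Dot1l*-cKO and control, 9 of the 10 genes had a log2 fold change below 0, as had 52% of all genes tested. *E2f7* was the only one with an adjusted p below 0.05, and it fell. That is 1 of 10 genes, where 2.99% of all genes passed in either direction and 1.09% were lower. With DESeq2, the tool of the study, 4 of 10 passed, *E2f3* (adjusted p = 0.0152), *E2f7* (0.00111), *E2f8* (0.0138) and *Rbl1* (0.0114), and the same 4 passed in edgeR without the expression filter. Calls over all genes also rose in these settings, from 591 of 19773 genes. Of the 35244 genes with any count, 1508 passed with DESeq2 (4.28%) and 2201 without the filter (6.25%). By default DESeq2 can leave genes of low count without an adjusted p, so its share of the genes given one may be above 4.28%. At an unadjusted p below 0.05 there were 5 of 10 genes, *E2f3*, *E2f7*, *E2f8*, *Rbl1* and *Tfdp1*, each of them lower, against 10.6% of all genes. The median log2 fold change over the 10 genes was -0.14, beside -0.0077 over all genes and -0.20 over the 42 S phase genes, of which 6 passed and 41 were below 0. For all 10 genes the values of the 5 control and the 5 *Dot1l*-cKO embryos overlapped, as they did for all but 1.93% of all genes. In a bulk sample, fewer cycling cells and less RNA of these genes per cell cannot be told apart.

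*E2f7*, an atypical repressor of S phase genes (ENSMUSG00000020185.16, chromosome 10 from 110745439 to 110787384), was at 17.2, 14.4 and 17.0 CPM in the controls of litter 1 and at 10.6, 13.4 and 12.7 CPM in their *Dot1l*-cKO littermates. In litter 2 it was at 27.7 and 29.1 CPM in controls and at 24.3 and 21.7 CPM in *Dot1l*-cKO embryos. Within each litter every *Dot1l*-cKO embryo was below every control. The log2 fold change was -0.37 (standard error, SE, 0.08, Benjamini-Hochberg adjusted p = 0.0327 by the quasi-likelihood test of edgeR), a ratio of 0.776 between *Dot1l*-cKO and control. In fits that each omitted 1 embryo, *E2f7* stayed between -0.40 and -0.31 on the log2 scale and passed the threshold in 4 of 10 fits. It missed the threshold without litter 1 control 4 (adjusted p = 0.0882), litter 1 control 9 (0.0705), litter 1 *Dot1l*-cKO 2 (0.0736), litter 2 control 5 (0.0690), litter 2 control 7 (0.0710) or litter 2 *Dot1l*-cKO 6 (0.106), and without the litter in the model (0.698). In those 6 fits without an embryo, calls over all genes dropped from 591 to between 53 and 171, and without the litter term 0 genes passed (0%).

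*E2f8*, the other atypical repressor (ENSMUSG00000046179.17, chromosome 7 from 48866429 to 48881596), was at 12.1, 16.1 and 15.4 CPM in controls and 9.75, 12.7 and 11.2 CPM in *Dot1l*-cKO embryos of litter 1. In litter 2 it was at 27.3 and 23.5 CPM in controls and 22.5 and 18.7 CPM in *Dot1l*-cKO embryos. The lowest control of litter 1 lay within the range of its *Dot1l*-cKO littermates, and the groups of litter 2 did not overlap. Its log2 fold change of -0.34 was close to that of *E2f7*, with a SE of 0.10 and an adjusted p of 0.0664. Exons of *E2f8* overlap the transcript *Gm2788* on the other strand by 610 bases and exons of *E2f7* overlap *1700020G17Rik* by 86 bases. Those transcripts were at no more than 0.494 and 0.0976 CPM, and whether counting used the strand is not given in the sources used here.

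*Rbl1*, the pocket protein gene for p107 (ENSMUSG00000027641.13, chromosome 2 from 157145893 to 157204534), was at 24.6, 28.0 and 29.0 CPM in controls and 19.0, 25.8 and 24.3 CPM in *Dot1l*-cKO embryos of litter 1. In litter 2 it was at 49.1 and 50.2 CPM in controls and 39.9 and 36.0 CPM in *Dot1l*-cKO embryos, without overlap. The log2 fold change was -0.30 (SE 0.08, adjusted p = 0.0576). In litter 2 alone it was -0.38 with an adjusted p of 0.0170 (there *Rbl1* was the only family member to pass, with 5.13% of 18786 genes passing and 1.16% lower), and in litter 1 alone -0.23 with an adjusted p of 0.405 (0.0623% of genes passed). *Rbl1* lies 2576 kb from *E2f1*, the site of the transgene, on the same chromosome, and whether the linkage bears on its level was not tested. *Rb1*, the founding pocket protein gene (ENSMUSG00000022105.6, chromosome 14 from 73183673 to 73325822), ranged over 93.3 to 113 CPM in controls and over 89.2 to 100 CPM in *Dot1l*-cKO embryos, with a log2 fold change of -0.084 (SE 0.05, adjusted p = 0.315). Exons of *Rb1* overlap those of *Rcbtb2* (84.4 to 126 CPM) and *Lpar6* (11.7 to 21.3 CPM) on the other strand by 488 and 408 bases, so without a known strand setting part of its reads may be theirs. Exons of *E2f5* overlap *1810022K09Rik* (19 to 23.2 CPM) by 26 bases.

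Among the activators, *E2f3* (ENSMUSG00000016477.18, chromosome 13 from 29906575 to 29986063) was at 36.3, 38.9 and 39.0 CPM in controls and 27.9, 35.4 and 30.8 CPM in *Dot1l*-cKO embryos of litter 1. In litter 2 it was at 53.1 and 56.9 CPM in controls and 50.1 and 47.9 CPM in *Dot1l*-cKO embryos. As with *E2f7*, every *Dot1l*-cKO embryo was below every control of its litter, but the log2 fold change of -0.24 (SE 0.06) had an adjusted p of 0.0576. *E2f2* (ENSMUSG00000018983.9, chromosome 4 from 136172394 to 136196057) was at 11.7, 10.4 and 11.8 CPM in controls and 8.12, 11.2 and 10.5 CPM in *Dot1l*-cKO embryos of litter 1, and its log2 fold change was -0.17 (SE 0.09, adjusted p = 0.281). The *E2f2* values of litter 2 were 25.3 and 24.5 CPM in controls and 24.1 and 21.3 CPM in *Dot1l*-cKO embryos. *E2f2* overlapped between the groups in litter 1 and not in litter 2.

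The repressors *E2f4*, *E2f5* and *E2f6* and the partner *Tfdp1*, like *Rb1*, showed smaller differences than the other 5 genes. *E2f4* (ENSMUSG00000014859.9, chromosome 8 from 105297663 to 105305370) was the only gene above 0, at 0.017 on the log2 scale (SE 0.05, adjusted p = 0.870), with 46.4, 44.7 and 45.6 CPM in controls and 42.9, 45.3 and 47.7 CPM in *Dot1l*-cKO embryos of litter 1. In litter 2 *E2f4* was at 61.7 and 57.2 CPM in controls and 63.1 and 60.4 CPM in *Dot1l*-cKO embryos, so the groups overlapped in both litters. *E2f5* (ENSMUSG00000027552.14, chromosome 3 from 14578641 to 14606309) ranged from 18.9 to 28.4 CPM in controls and from 19.2 to 26.3 CPM in *Dot1l*-cKO embryos, with a log2 fold change of -0.054 (SE 0.07, adjusted p = 0.679), and *E2f6* (ENSMUSG00000057469.8, chromosome 12 from 16810963 to 16839742) ranged from 47.2 to 67.3 CPM and from 42.1 to 58.9 CPM, with -0.11 (SE 0.05, adjusted p = 0.243). *Tfdp1* (ENSMUSG00000038482.11, chromosome 8 from 13338751 to 13378448) was at 97.8, 99.3 and 95.3 CPM in controls and 90.2, 90.0 and 93.4 CPM in *Dot1l*-cKO embryos of litter 1, and at 124 and 127 CPM against 118 and 111 CPM in litter 2. With a small spread, *Tfdp1* was lower in every *Dot1l*-cKO embryo than in any control of the same litter, by -0.11 on the log2 scale (SE 0.04, adjusted p = 0.116). Thus 3 of the 10 genes, *E2f3*, *E2f7* and *Tfdp1*, were lower without overlap within both litters, against 4.15% of all genes.

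**Figure D2:**
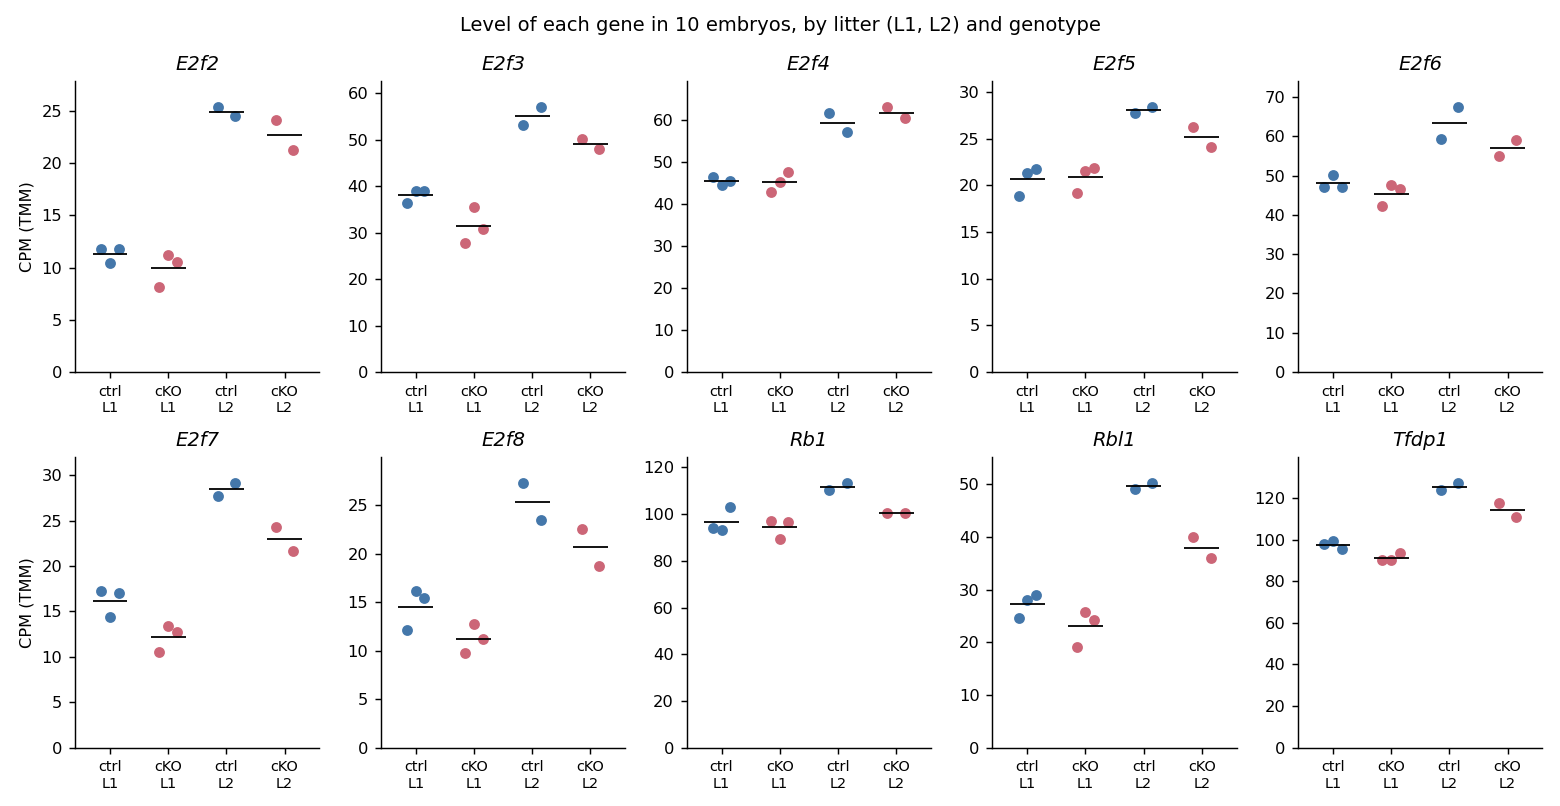
Level of each gene in CPM (TMM-normalized, axis from 0), 1 point per embryo, for control (ctrl, blue) and *Dot1l*-cKO (red) of litter 1 (L1, 3 embryos each) and litter 2 (L2, 2 embryos each), with lines at the mean. *E2f7*, *E2f3* and *Tfdp1* show no overlap of the genotypes within either litter, and *E2f4* shows overlap in both.

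The order of these differences was set beside the S phase genes. *E2f7* (log2 fold change -0.37) and *E2f8* (-0.34) lay at the low end of them, with 2 and 3 of the 42 S phase genes lower still, and *Rbl1* (-0.30) had 9 below it. *E2f3* and *E2f2* lay in the middle, with 18 and 26 S phase genes below them. *E2f6* and *Tfdp1* had 32 below them, *E2f5* and *Rb1* 38, and *E2f4* 41 of 42. To test this directly, each library was scaled so that the mean log2 count of the 42 S phase genes was equal in all embryos, and *E2f8*, which stands in the published S phase list, was kept out of the reference.

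Relative to the S phase genes, 0 of the 10 genes had an adjusted p below 0.05 between *Dot1l*-cKO and control by edgeR's quasi-likelihood test, and 1 of them, *E2f4*, had an unadjusted p below 0.05, in the higher direction with 36.8% of all genes. Of all genes 19.6% passed on this scale and 19.1% were higher, because a gene at the same level in both genotypes lies above the S phase genes here. The differences were -0.17 for *E2f7* (95% interval -0.37 to 0.027), -0.15 for *E2f8* (-0.36 to 0.061), -0.10 for *Rbl1* (-0.28 to 0.076), -0.036 for *E2f3* (-0.20 to 0.13) and 0.028 for *E2f2* (-0.17 to 0.23). All 5 intervals include 0, and those of *E2f7* and *E2f8* lie mostly below it. For the other 5 genes the differences were above 0: 0.094 for *E2f6* (-0.080 to 0.27), 0.095 for *Tfdp1* (-0.081 to 0.27), 0.13 for *Rb1* (-0.062 to 0.31), 0.15 for *E2f5* (-0.039 to 0.34) and 0.22 for *E2f4* (0.041 to 0.40). The interval of *E2f4* alone excluded 0, with an adjusted p of 0.0712, and without litter 1 *Dot1l*-cKO 3 its difference of 0.26 passed (adjusted p = 0.0160). Over all 10 embryos no member was shown to depart from the S phase genes on this scale.

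**Figure D3:**
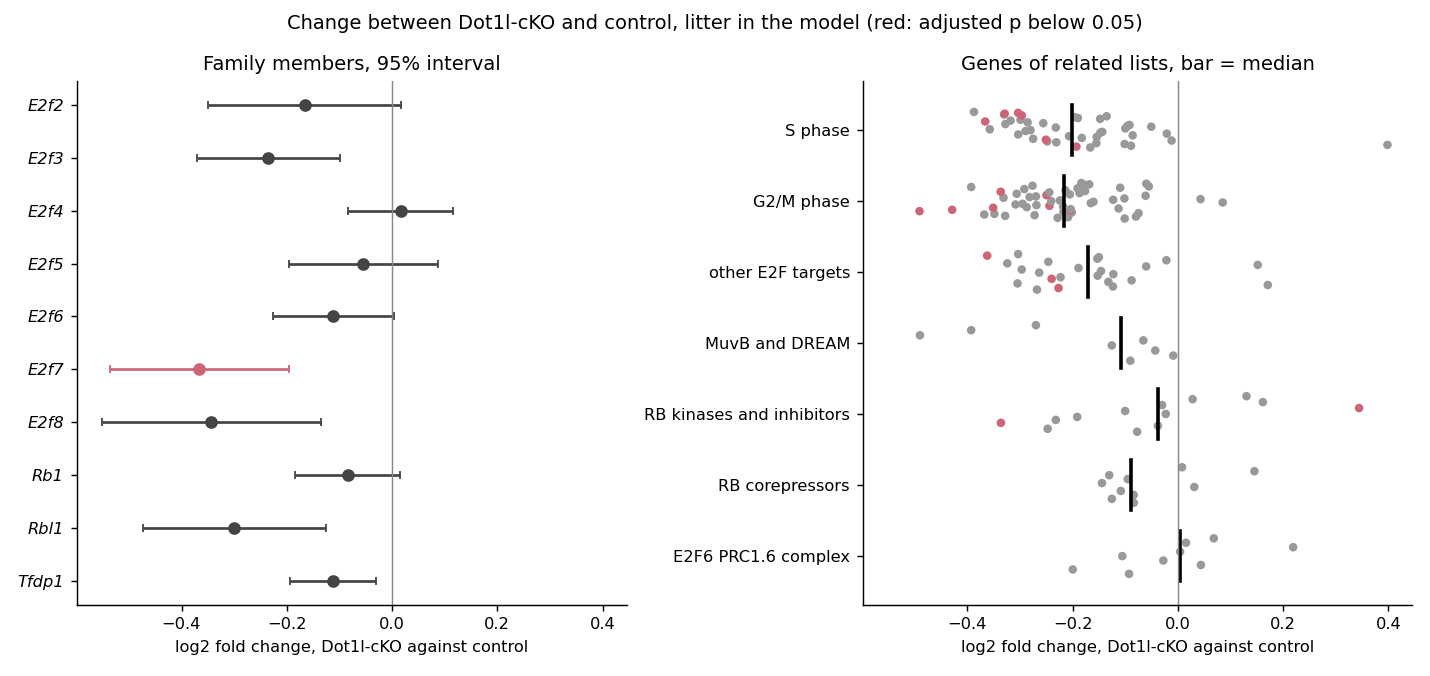
Log2 fold change between *Dot1l*-cKO and control with the litter in the model, for the 10 family members with 95% intervals (left) and for the genes of 7 related lists, 1 point per gene with a bar at the median (right, S phase without *E2f8*), where red marks an adjusted p below 0.05. *E2f7*, *E2f8* and *Rbl1* reach as low as the lower S phase genes, and *E2f4* lies at 0.017.

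No difference of the genotype effect between the litters was detected, in a design of 3 against 3 and 2 against 2 that gives wide intervals. In the fit with the product of litter and genotype, 0 of the 10 genes passed (0.0101% of all genes did) and 0 had an unadjusted p below 0.05 by edgeR's quasi-likelihood test, against 8.19% of all genes. DESeq2 also gave 0 of 10, with 0.267% of the genes with any count passing. For *E2f7* the difference between the effects was 0.10 on the log2 scale with a 95% interval of -0.25 to 0.45, which is wide beside its change of -0.37. Without overlap between the genotypes, 3 of the 10 genes were lower in litter 1, where 3 embryos stood against 3 (9.47% of all genes), and 9 of the 10, all but *E2f4*, were lower in litter 2, where 2 stood against 2 (27.5% of all genes). The median of the 10 log2 fold changes was -0.14 in litter 1 and -0.15 in litter 2.

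For each of the 10 genes the estimated difference between the litters was larger in size than that between genotypes over all 10 embryos. No test compared the 2 differences, and for *Rb1* they were 0.15 and -0.084 on the log2 scale (SE 0.05 for both). All 10 genes were higher in litter 2 with an adjusted p below 0.05, where 16.9% of all genes were higher, and 9 of them did not overlap between the litters at all (23.4% of all genes did not overlap, in either direction). *E2f2*, the activator, differed most, by 1.17 on the log2 scale (SE 0.09, adjusted p = 9.1e-07 in the same edgeR fit). *E2f7* (0.86), *E2f8* (0.84) and *Rbl1* (0.79) followed near the median of the S phase genes, which was 0.79 with 42 of 42 higher. *E2f3* was higher by 0.59, *E2f4* by 0.42, *E2f5* and *E2f6* by 0.36, *Tfdp1* by 0.34 and *Rb1* by 0.15 (adjusted p = 0.0252), and the litters overlapped for *Rb1* alone. The call of *Rb1* was lost without litter 1 control 4 (adjusted p = 0.0562), litter 2 control 5 (0.0608) or litter 2 control 7 (0.0758).

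Cell type markers moved with the litter as well. In litter 2, 13 of 16 neural progenitor markers were higher and 2 lower (median log2 fold change 0.64), 7 of 14 neuron markers were lower (median -0.13), 5 of 8 sensory neuron markers were lower (median -0.65), and 3 of 5 markers of neural crest glia were lower (median -0.39), where 17.8% of all genes were lower. Of endothelial markers 4 of 7 were lower (median -0.33), and of erythroid markers 5 of 9 were higher and 1 lower (median 0.45). Of microglia markers 1 of 9 was lower, of mesenchyme markers 2 of 8 were higher and 1 lower, and of muscle markers 0 of 4 passed. The part of these cell types in the higher E2F family levels of litter 2 was not tested, and neither was that of the number of floxed alleles in the controls. With the controls alone, in which the floxed alleles also differ, 10 of 10 genes were higher in litter 2 (11.6% of all genes), and with the *Dot1l*-cKO embryos alone, which share the genotype but differ in sex-linked genes, 8 of 10 were (8.92% of all genes), without *E2f5* (adjusted p = 0.0762) and *Rb1* (adjusted p = 0.352). Between *Dot1l*-cKO and control, by contrast, 0 of 16 neural progenitor markers passed (median -0.030), 1 of 14 neuron markers was lower (*Nefl*, median 0.045 over the list), and summed progenitor markers spanned 3329 to 4176 CPM in controls and 3023 to 4199 CPM in *Dot1l*-cKO embryos.

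On the scale set by the S phase genes, the family fell into 3 sets between the litters. *E2f2* exceeded the S phase genes in litter 2 by 0.37 on the log2 scale (95% interval 0.16 to 0.57, adjusted p = 0.00131, edgeR's quasi-likelihood test), as did 0.708% of all genes. The log2 CPM of *E2f2* minus the mean of the S phase genes was between -1.42 and -1.17 in the 6 embryos of litter 1 and between -1.02 and -0.85 in the 4 embryos of litter 2, without overlap. *E2f7* (0.058, interval -0.14 to 0.26), *E2f8* (0.044, -0.17 to 0.26) and *Rbl1* (-0.0050, -0.19 to 0.18) were not called against the S phase genes, whereas 87.4% of all genes were. The remaining 6 genes rose less than the S phase genes and passed, as 86.7% of all genes did: *E2f3* by -0.21 (adjusted p = 0.0215), *E2f4* by -0.39, *E2f5* by -0.45, *E2f6* by -0.44, *Tfdp1* by -0.46 and *Rb1* by -0.66. *E2f3* lost its call without litter 2 control 5 (adjusted p = 0.0659), litter 2 control 7 (0.0753) or litter 2 *Dot1l*-cKO 4 (0.0552), and with summed counts of the S phase genes as the reference (0.0570). The comparison was added after the data were seen. With the *Dot1l*-cKO embryos alone 4 of 10 genes passed, *E2f5*, *E2f6*, *Rb1* and *Tfdp1*, each lower (78.6% of all genes), and *E2f2* was at 0.40 with an adjusted p of 0.0530.

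**Figure D4:**
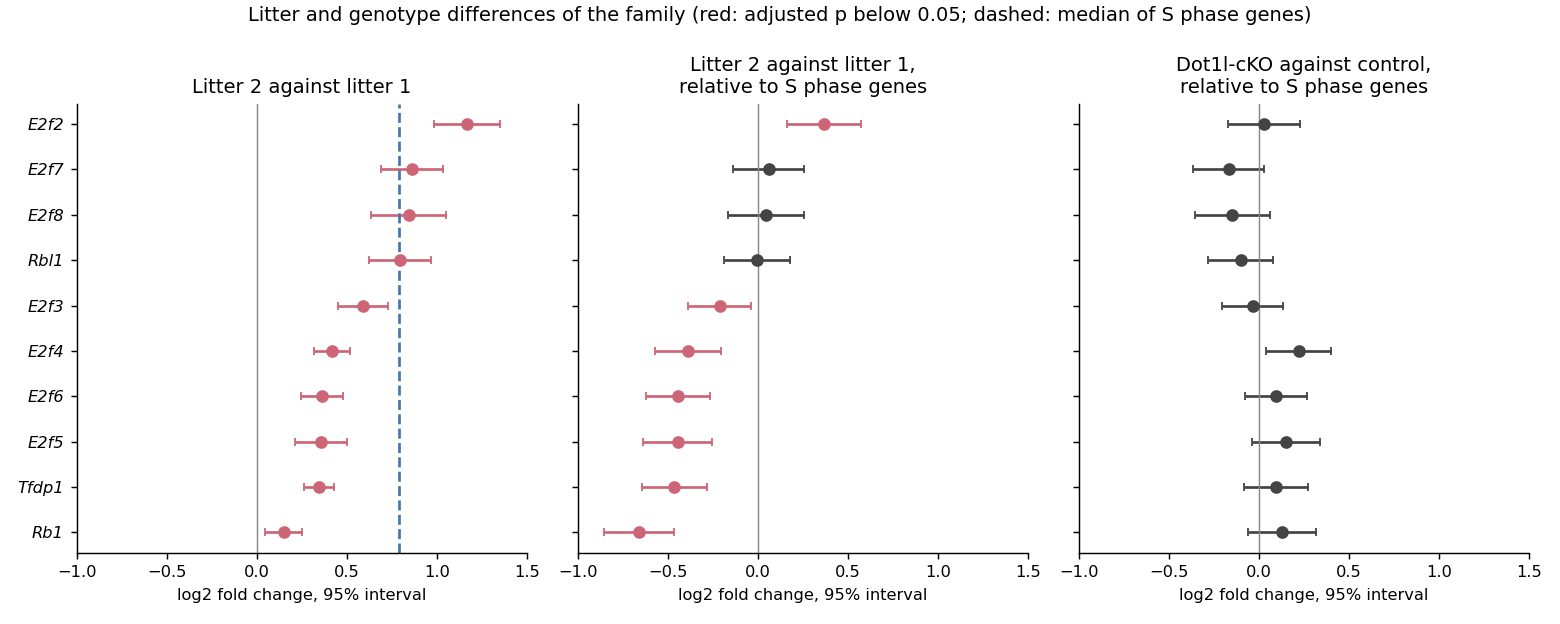
Log2 fold changes with 95% intervals for litter 2 against litter 1 (left, dashed line at 0.79, the median of the S phase genes), for the same comparison relative to the S phase genes (middle) and for *Dot1l*-cKO against control relative to the S phase genes (right), with red for an adjusted p below 0.05. In the middle panel *E2f2* lies above 0, *E2f7*, *E2f8* and *Rbl1* at 0 within their intervals, and 6 genes below 0, whereas no gene is red in the right panel.

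The rest of the pathway was described by lists of known members, with values from the comparison of *Dot1l*-cKO and control. In that comparison 52% of all genes were below 0, 2.99% had an adjusted p below 0.05 and 1.09% had one and were lower. Of 24 other E2F targets, genes of replication and the cycle outside the S phase list, 22 were below 0 and 3 fell with an adjusted p below 0.05 (median -0.17). These were *Cdc25a*, a phosphatase that activates cyclin-dependent kinases (log2 fold change -0.23), *Ezh2*, the H3K27 methyltransferase (-0.24), and *Tk1*, thymidine kinase (-0.36, adjusted p = 0.0497). The largest differences among the others were -0.32 in *Pole*, a replicative polymerase, and -0.30 in both *Chek1*, the checkpoint kinase, and *Brca1*, a repair gene, with adjusted p values of 0.0827, 0.103 and 0.0898.

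Of 13 kinases, cyclins and inhibitors that act on the pocket proteins, *Ccne1*, a cyclin of S phase entry, fell by 0.34 on the log2 scale (adjusted p = 0.0364) and *Cdkn1a*, the inhibitor p21, rose by 0.34 (adjusted p = 0.0418), with a median of -0.038 over the list. The next largest differences were -0.25 for *Ccnd2*, -0.23 for *Ccne2*, which is also in the S phase list, and -0.19 for *Cdk2*, none of which passed. In the MuvB and DREAM list, whose core binds E2F4 with pocket proteins in resting cells and MYBL2 and FOXM1 in cycling cells, 8 of 8 genes were below 0 and 0 passed (median -0.11). Its 3 largest differences were those of *Mybl1* (-0.49, adjusted p = 0.0563), *Mybl2* (-0.39, adjusted p = 0.0921) and *Foxm1* (-0.27, adjusted p = 0.104). In contrast, the core subunits *Lin9*, *Lin37*, *Lin52*, *Lin54* and *Rbbp4* lay between -0.13 and -0.0089.

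Among partners of repression no gene passed by genotype, although *Ring1* and *Mga* differed by about the size of the S phase median of -0.20. None of 9 genes of the E2F6 PRC1.6 complex passed (4 below 0, median 0.0041), with 0.22 in *Ring1*, -0.20 in *Mga* and -0.11 in *Cbx3* as the largest differences. Likewise 0 of 10 corepressors recruited by pocket proteins passed (7 below 0, median -0.090), with 0.15 in *Ehmt2*, -0.14 in *Arid4a* and -0.13 in *Kdm5a*. Outside the 10 genes, the pocket protein gene *Rbl2* (p130) was at -0.073 and the second DP gene, *Tfdp2*, at -0.24 (adjusted p = 0.0623). The counts and medians of these lists describe them and are no test of a list.

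By the pattern over the 10 embryos, 3 genes were most like *E2f7*, the member that fell. On log2 CPM centred and scaled to unit variance for each gene, *Tor1aip2*, which encodes a protein of the nuclear envelope and endoplasmic reticulum, differed from *E2f7* by a root mean square of 0.0839, *Mns1*, a gene of cilia and flagella, by 0.113 and *Dna2*, a nuclease and helicase of DNA replication, by 0.116, where the median over 13511 genes was 1.3. The 10 embryos share the 2 litters, so the likeness includes the litter difference, and the scaling removes the size of a change. Between *Dot1l*-cKO and control the log2 fold change was -0.096 for *Tor1aip2* (adjusted p = 0.171, edgeR's quasi-likelihood test). It was -0.35 for *Mns1* (0.0493) and -0.25 for *Dna2* (0.0530).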

How the data were processed

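RNA of the lumbar spinal cord with dorsal root ganglia was sequenced from polyA libraries, 1 per embryo. After trimming, STAR alignment to mm10 and featureCounts per GENCODE gene in snakePipes, the authors deposited raw counts, without normalization. Each column was assigned by its name. Gene names came from GENCODE annotation of GRCm38, which matched 54079 of 54146 identifiers without their version, and promoter sequences from RefSeq.

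The counts were analysed in R 4.3.3. After edgeR's default expression filter (19773 genes) and TMM normalization, the quasi-likelihood test of edgeR 4.0.16 was applied with litter and genotype as terms, and p was adjusted over all genes by Benjamini-Hochberg at 0.05. Standard errors are the log2 fold change divided by the square root of F, and intervals cover 95%. For values relative to the S phase genes, the TMM factors were replaced by the mean log2(count + 0.5) of 42 S phase genes. The study used DESeq2, which was run as an alternative (DESeq2 1.42.0), beside limma-voom (limma 3.58.1), other scalings and filters, a GC correction, single litters and fits without each embryo. The scripts were checked on simulated counts.

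The 10 genes, lists and tests were chosen with earlier results of these data known. All 10 members are named. Of other lists, counts and medians are given, and from lists of the pathway the genes with an adjusted p below 0.05 and up to 3 more with the largest change are named. For likeness, the 3 nearest genes with a mean log2 CPM of at least 1 are named for a member that passed. Within each group, no pair of embryos agreed within sampling noise (chi-square per gene at least 9.31), so each embryo counted as 1 replicate. Replicates are embryos, and 2 litters give little information on how litters vary.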

Additional observations from a re-analysis of the deposited data

How the results depend on the processing

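Between *Dot1l*-cKO and control, 1 of the 10 genes passed, and the number was 4 without the expression filter and with DESeq2 (*E2f3*, *E2f7*, *E2f8* and *Rbl1* in both), 2 with robust edgeR (*E2f3* and *E2f7*), and 0 without the litter in the model and in litter 1 alone. Calls over all genes moved too, from 591 to 2201 without the filter, 1508 with DESeq2, 639 with robust edgeR, 12 in litter 1 alone, 0 without the litter and 53 to 1377 with each embryo left out. The number of family members ranged from 0 to 3 with each embryo left out, with 3 without litter 1 *Dot1l*-cKO 3 (*E2f3*, *E2f7* and *Rbl1*) and 2 without litter 1 *Dot1l*-cKO 7 (*E2f7* and *Rbl1*). Under DESeq2's size factors, library size alone, a minimum of 10 counts, limma-voom, the GC correction and edgeR with legacy = FALSE (added after the data were seen) it stayed at 1, and in litter 2 alone it was also 1, *Rbl1* in place of *E2f7* (adjusted p = 0.0861). Over 12 such settings *E2f7* lay between -0.40 and -0.30 on the log2 scale.

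*E2f4* changed sign in litter 1 alone (-0.0039), with the GC correction (-0.033) and over the fits without 1 embryo (-0.0039 to 0.045), and *E2f5* in litter 1 alone (0.020). Relative to the S phase genes, the number stayed at 0 under the other settings run on that scale and ranged from 0 to 1 with each embryo left out. Those settings were summed counts, G2/M phase genes as the reference, no expression filter, each litter alone and limma-voom, and DESeq2 was not run there. On that scale *E2f3* changed sign in litter 2 alone (0.034) and *E2f2* over the fits without 1 embryo (-0.0057 to 0.059). Between the litters, 9 to 10 genes passed with each embryo left out and 9 without the filter (*Rb1* was lost). The interaction gave 0 under every setting run. Between the litters relative to the S phase genes, 7 genes passed, 6 to 7 with each embryo left out, 6 with summed counts of the S phase genes (*E2f3* was lost, adjusted p = 0.0570), and 4 with the *Dot1l*-cKO embryos alone. There *Rbl1*, at -0.0050, changed sign with summed counts (0.045), the controls alone (0.068) and over the fits without 1 embryo (-0.040 to 0.015), and *E2f8* with G2/M phase genes as the reference (-0.00078) and over the fits without 1 embryo (-0.016 to 0.11). The cause of these changes was not tested. No paired analysis was possible because the groups compared share no replicate numbers, and the litter entered as a covariate. The number of embryos, 5 a group in 2 litters, limits the precision, and at 453 to 6781 reads a gene counting error adds to the spread between embryos.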
